A study of Mus musculus with 10 samples.

Results

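The R-spondin pathway was read here through 9 genes, *Rspo1*, *Rspo2*, *Rspo3*, *Lgr4*, *Lgr5*, *Lgr6*, *Znrf3*, *Rnf43* and *Axin2*, in the cerebral cortex of mice lacking *Crtc1*, a coactivator of the transcription factor CREB. Every probe set of the array whose annotation named only 1 of these genes was taken, which gave 16 of 45037 probe sets and 9 of 18193 genes, and 0 probe sets named a member together with another gene. *Rspo1* brought the family in because it fell strongly with genotype in these same arrays, so its difference is described without a test. The other members were taken for their place in the pathway.

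Cortical RNA of 5 *Crtc1*-/- mice and of 5 WT littermates was run on 10 Affymetrix GeneChip arrays, 1 array per mouse, to ask which transcripts differ when *Crtc1* is missing. All 10 mice were untreated females of strain C57BL/6N, labelled as adults of 2 months, and 300 ng of total RNA went into each labelling. The deletion was not restricted to a cell type by any label or method text, and the samples were bulk cortex, in which fewer cells of a type and less RNA per cell cannot be told apart. Array values were deposited as log2, a scale on which a difference of 1 is a 2-fold change, and a fold change is the mean of *Crtc1*-/- mice minus the mean of WT mice.

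R-spondins are secreted proteins that strengthen Wnt signalling. They bind the receptors LGR4, LGR5 and LGR6 together with ZNRF3 or RNF43, membrane E3 ubiquitin ligases that otherwise mark Frizzled receptors for removal, so that more Frizzled stays on the cell surface. In mouse visual cortex *Rspo1* marks a set of layer 4 neurons, and in the mouse amygdala *Rspo2* marks a class of excitatory neurons.

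*Crtc1* itself was low in every *Crtc1*-/- mouse, between 5.96 and 6.60 on the log2 scale, against 9.51 to 9.86 in WT mice (probe set 1434476_at, log2 fold change -3.32, limma adjusted p = 2.13e-07). Its probe set 1458443_at fell by 1.78 on the log2 scale, and 1446533_at differed by -0.03 (adjusted p = 0.963). The place of these probe sets relative to the deletion is not given in the sources used here. Arrays correlated with each other at 0.994 to 0.998 over all probe sets, and their medians lay within 0.03. Markers of cortical neurons (7 of 8 measured) averaged 11.39 on the log2 scale in *Crtc1*-/- mice and 11.46 in WT mice, while those of the choroid plexus averaged 4.81 and those of the olfactory bulb 4.47 in *Crtc1*-/- mice, against 4.74 and 4.39 in WT mice. Markers of 2 other regions were higher than these. Striatal markers (4 of 6 measured) averaged 7.49 in *Crtc1*-/- mice and 7.47 in WT mice, and thalamic markers (5 of 5 measured) averaged 7.17 and 7.08. Whether the samples held tissue from outside the cortex was not tested.

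The upstream sequences of the gene with the largest difference among the members and of the pathway's transcriptional output are shown first, because the deleted protein acts through CREB and *Axin2* is read as a product of TCF factors. The reference table of RefSeq (GRCm38.p6) held promoter windows for 5 of the 9 genes, *Rspo1*, *Lgr4*, *Lgr6*, *Rnf43* and *Axin2*, and *Rspo2*, *Rspo3*, *Lgr5* and *Znrf3* are only named here. The windows shown are the 250 bases before the annotated start, on the plus strand at chr4:124986180-124986429 for *Rspo1* and chr11:108920099-108920348 for *Axin2*, with any ACGT, the core of the CREB recognition sequence, in capitals.
Rspo1: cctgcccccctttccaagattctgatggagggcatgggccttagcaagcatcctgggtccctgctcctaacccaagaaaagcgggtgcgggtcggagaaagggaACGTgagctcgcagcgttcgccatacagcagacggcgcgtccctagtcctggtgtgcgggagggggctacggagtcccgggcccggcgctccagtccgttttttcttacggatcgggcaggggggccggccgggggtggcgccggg
Axin2: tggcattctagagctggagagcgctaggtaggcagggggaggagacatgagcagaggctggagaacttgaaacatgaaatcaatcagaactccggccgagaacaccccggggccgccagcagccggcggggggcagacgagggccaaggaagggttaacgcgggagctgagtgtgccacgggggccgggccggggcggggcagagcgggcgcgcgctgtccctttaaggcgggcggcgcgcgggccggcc
The *Rspo1* window was 66.8% G and C with 22 CpG, and the *Axin2* window was 69.2% G and C with 24 CpG. Neither window held the full cAMP response element TGACGTCA (1.55% of 32851 such windows on either strand), the shorter TGACG (17.8%), or the TCF sequences CTTTGAT and CTTTGAA (7.48% held at least 1 of them). The *Rspo1* window held 1 ACGT, 146 to 143 bases before the start, as did 26.9% of all windows at some place, and the *Axin2* window held none. The search for ACGT, which lies within TGACGTCA, was added after the longer sequences had given no match. A match is a description of letters, and no match says only that these letters are not in this window.

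Among the ligands, *Rspo1*, a growth factor for intestinal crypts that also acts in ovary development, was low in all *Crtc1*-/- mice. Its only probe set, 1449319_at, read 5.72, 4.87, 5.25, 5.30 and 5.66 on the log2 scale in *Crtc1*-/- mice 1 to 5, against 7.13, 6.90, 7.11, 6.94 and 7.27 in WT mice 1 to 5. The groups did not overlap, as in 2.08% of all probe sets, with 1.18 between the highest *Crtc1*-/- mouse and the lowest WT mouse, and *Crtc1*-/- mouse 2 was the lowest of all.
The mean was 5.36 ± 0.34 in *Crtc1*-/- mice, against 7.07 ± 0.15 in WT mice (SD, n = 5 each). The log2 fold change was -1.71 (standard error 0.14), so *Crtc1*-/- cortex held 0.306 times the WT level. Ordered by fold change, this was the 4th largest fall among 18193 genes, each represented by its probe set with the highest mean, and the 7th among all probe sets. With each array left out in turn, the log2 fold change of *Rspo1* stayed between -1.80 and -1.59.

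*Rspo2*, the ligand whose loss in mice impairs limb and lung development, was lower in *Crtc1*-/- cortex at 1 of its 2 probe sets. Probe set 1455893_at read 7.74, 7.63, 7.77, 7.98 and 7.69 in *Crtc1*-/- mice 1 to 5, against 8.41, 8.52, 8.03, 8.41 and 8.36 in WT mice 1 to 5. The groups did not overlap, but *Crtc1*-/- mouse 4, the highest of its group, and WT mouse 3, the lowest of its group, lay close together. The mean was 7.76 ± 0.13 in *Crtc1*-/- mice, against 8.35 ± 0.19 in WT mice (SD, n = 5 each).
At 1455893_at the log2 fold change was -0.59 (standard error 0.09, 95% confidence interval -0.79 to -0.39), that is 0.666 times the WT level, with an adjusted p of 0.0225 from limma over all probe sets, of which 0.302% were called. This call did not hold in every fit. It was lost in 8 of the 10 fits that left out 1 array (adjusted p = 0.0593 to 0.0720) and held without *Crtc1*-/- mouse 4 (adjusted p = 0.0213) and without WT mouse 3 (adjusted p = 0.00341), while the difference stayed negative in all 10. It was also lost without moderation of the variance (adjusted p = 0.126).
The other probe set of *Rspo2*, 1430104_at, read 4.05 to 4.31 in *Crtc1*-/- mice and 4.10 to 4.37 in WT mice. Its groups overlapped almost fully, and its log2 fold change was -0.05 (95% confidence interval -0.21 to 0.10, adjusted p = 0.942). Whether the probe sets differ in their response was not tested. When both were averaged, the log2 fold change was -0.32 and the adjusted p over genes was 0.0555.

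*Rspo3*, a ligand that endothelial cells produce and that acts in vessel development in mice, did not pass the test at either probe set. Probe set 1455607_at read 6.74, 6.78, 6.71, 6.91 and 7.03 in *Crtc1*-/- mice 1 to 5, against 7.05, 7.00, 7.12, 7.16 and 7.34 in WT mice 1 to 5. Only *Crtc1*-/- mouse 5 reached into the WT range, where it lay above WT mouse 2. The mean was 6.84 ± 0.13 in *Crtc1*-/- mice, against 7.13 ± 0.13 in WT mice (SD, n = 5 each).
The log2 fold change was -0.30 (95% confidence interval -0.47 to -0.13), and its p of 0.00252 from limma became 0.246 after adjustment over all probe sets. Probe set 1443187_at read 4.45 to 4.84 in *Crtc1*-/- mice and 4.35 to 5.04 in WT mice, with a log2 fold change of -0.14 (95% confidence interval -0.40 to 0.12, adjusted p = 0.888). *Rspo4*, the remaining R-spondin, which acts in nail development, read 3.31 to 3.66 in *Crtc1*-/- mice and 3.20 to 3.63 in WT mice, and its log2 fold change of 0.11 did not pass the test (adjusted p = 0.895), nor did any of the 5 measured genes in its list with relatives of the LGR receptors.

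**Figure D1:**
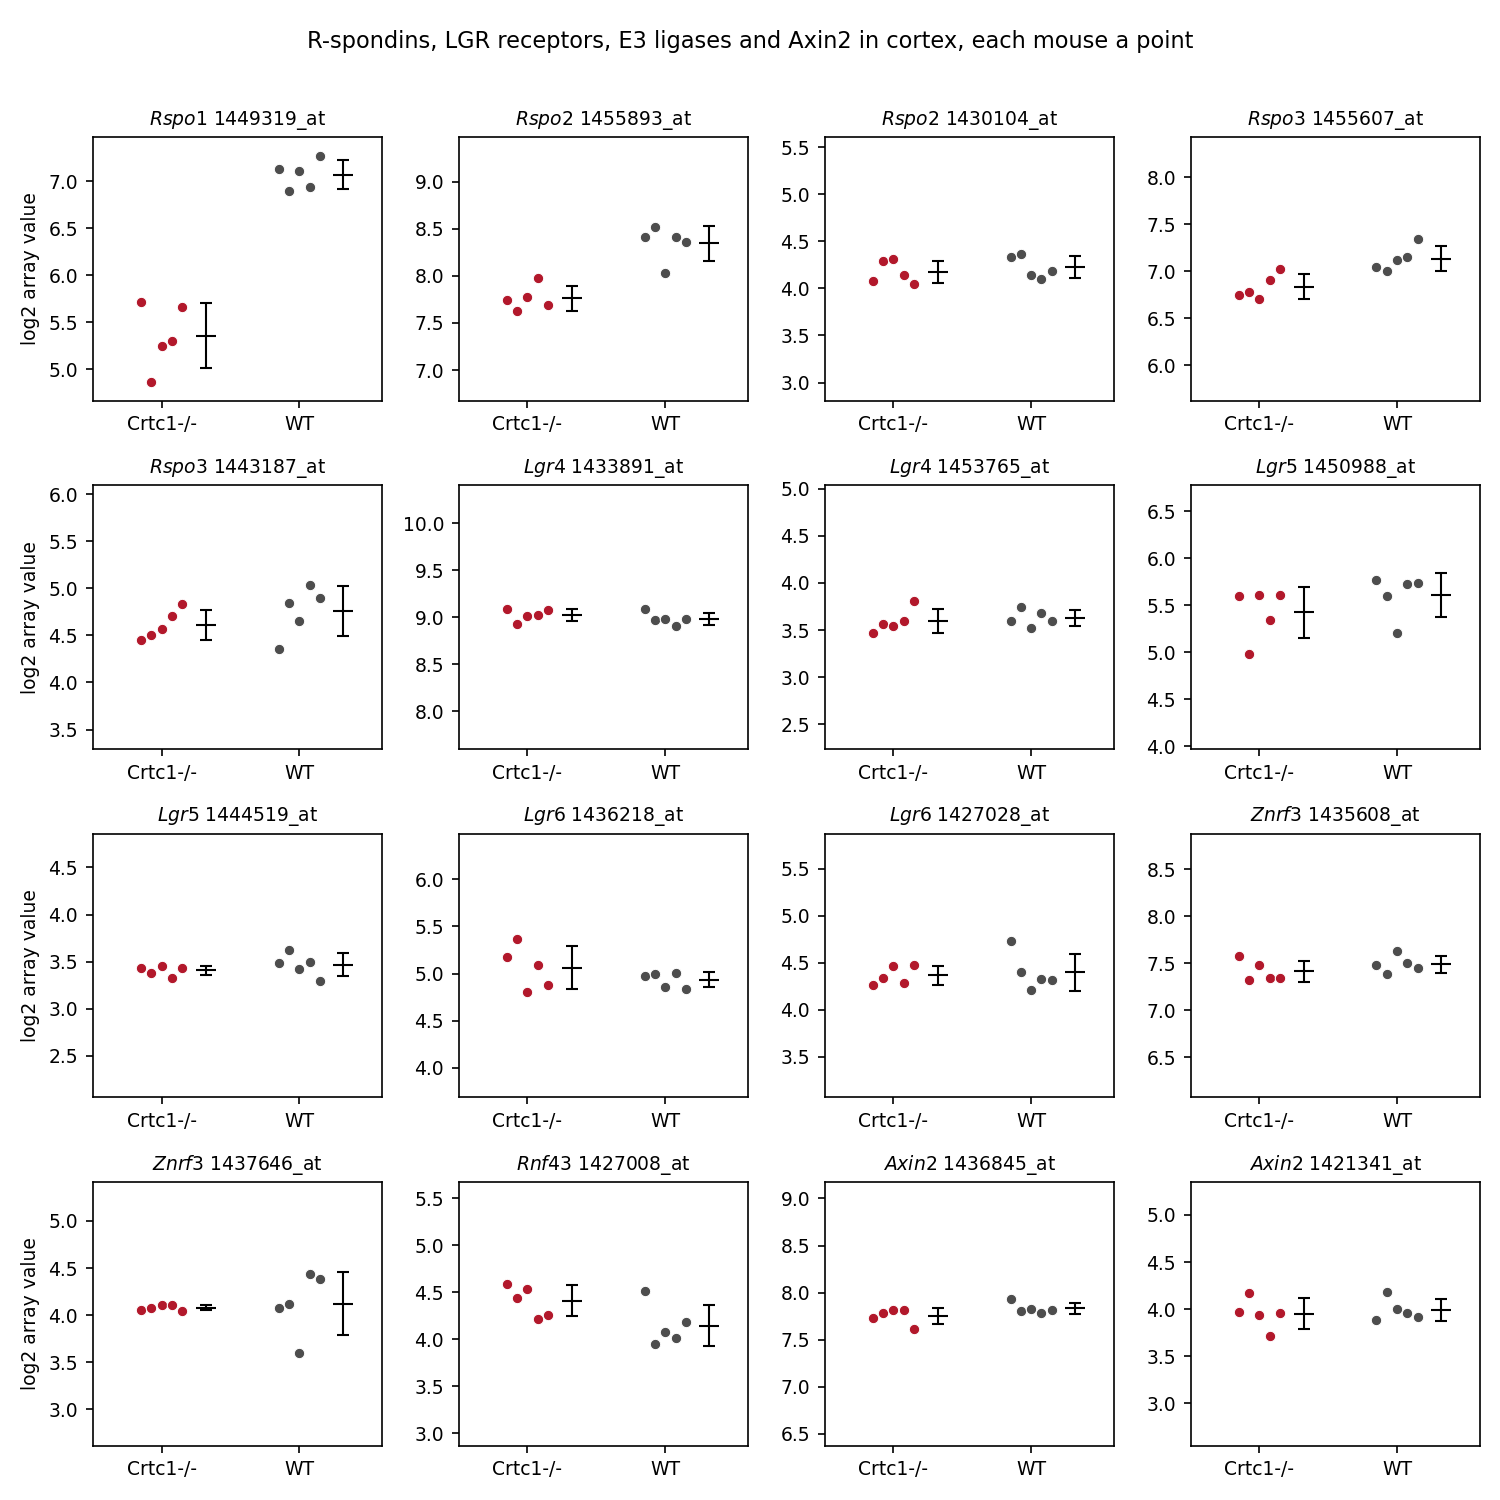
Log2 array value (y axis) of each of the 16 probe sets in *Crtc1*-/- mice (red) and WT mice (grey), each point a mouse, with the mean and SD beside the points and the same height of scale in every panel. *Rspo1* and *Rspo2* 1455893_at have groups that do not overlap, and the groups of the other panels overlap.

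None of the LGR receptor genes passed limma's test at any of their 6 probe sets, where 0.302% of all probe sets did. An unadjusted p under 0.05 was found in 0 of the 6, and in 7.19% of all probe sets. *Lgr4*, the most widely expressed of these receptors in mice, read 8.93 to 9.09 in *Crtc1*-/- mice and 8.91 to 9.08 in WT mice at 1433891_at. These ranges were nearly the same, and the means were 9.03 ± 0.06 in *Crtc1*-/- mice, against 8.98 ± 0.06 in WT mice (SD, n = 5 each). This difference of 0.04 had a 95% confidence interval of -0.07 to 0.15 (adjusted p = 0.930), so a change of *Lgr4* beyond 0.15 in either direction lay outside the interval. At 1453765_at the difference was -0.03 (adjusted p = 0.968).
*Lgr5*, known as a marker of intestinal stem cells, read 4.98 to 5.61 in *Crtc1*-/- mice and 5.21 to 5.76 in WT mice at 1450988_at. Both groups were spread widely, with *Crtc1*-/- mouse 2 and WT mouse 3 below the rest of their groups. The log2 fold change was -0.18 (95% confidence interval -0.48 to 0.12, adjusted p = 0.871), and that of 1444519_at was -0.06 (adjusted p = 0.921). *Lgr6*, known as a marker of stem cells in the hair follicle, read 4.80 to 5.37 in *Crtc1*-/- mice and 4.83 to 5.01 in WT mice at 1436218_at. The *Crtc1*-/- mice lay on both sides of the narrow WT range, the log2 fold change was 0.13 (95% confidence interval -0.08 to 0.34, adjusted p = 0.871), and that of 1427028_at was -0.03 (adjusted p = 0.973).

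The E3 ligases that R-spondins draw off the membrane did not pass the test either. *Znrf3* read 7.32 to 7.58 in *Crtc1*-/- mice and 7.38 to 7.63 in WT mice at 1435608_at, with means of 7.41 ± 0.11 in *Crtc1*-/- mice, against 7.49 ± 0.09 in WT mice (SD, n = 5 each). Its log2 fold change was -0.08 (95% confidence interval -0.22 to 0.06, adjusted p = 0.893). At 1437646_at the *Crtc1*-/- mice lay within 4.04 to 4.10 and the WT mice within 3.59 to 4.43, around a mean of 4.08 ± 0.03 in *Crtc1*-/- mice and of 4.12 ± 0.33 in WT mice (SD, n = 5 each), and the log2 fold change was -0.04 (adjusted p = 0.976).
*Rnf43* is read by 1 probe set, 1427008_at. It read 4.59, 4.44, 4.53, 4.22 and 4.26 in *Crtc1*-/- mice 1 to 5, against 4.51, 3.95, 4.08, 4.01 and 4.18 in WT mice 1 to 5. All *Crtc1*-/- mice lay above every WT mouse except WT mouse 1, which was as high as the upper *Crtc1*-/- mice. The mean was 4.41 ± 0.16 in *Crtc1*-/- mice, against 4.15 ± 0.22 in WT mice (SD, n = 5 each).
*Rnf43* thus had a log2 fold change of 0.26 (95% confidence interval 0.02 to 0.50), and its p of 0.0336 from limma became 0.640 after adjustment over all probe sets.

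*Axin2*, a scaffold of the complex that destroys beta-catenin and a gene that Wnt signalling itself induces in many cell types, was read as the output of the pathway. Probe set 1436845_at read 7.73, 7.78, 7.82, 7.81 and 7.62 in *Crtc1*-/- mice 1 to 5, against 7.93, 7.81, 7.83, 7.78 and 7.82 in WT mice 1 to 5. The groups overlapped, with *Crtc1*-/- mouse 5 below and WT mouse 1 above all other mice. The mean was 7.75 ± 0.08 in *Crtc1*-/- mice, against 7.83 ± 0.06 in WT mice (SD, n = 5 each).
The log2 fold change was -0.08 (standard error 0.05, 95% confidence interval -0.20 to 0.03, adjusted p = 0.832), that is 0.945 times the WT level with an interval of 0.873 to 1.02. A fall of *Axin2* as large as that of *Rspo2* therefore lay outside the interval, whereas a small fall did not. Probe set 1421341_at read 3.72 to 4.17 in *Crtc1*-/- mice and 3.89 to 4.18 in WT mice, with a log2 fold change of -0.04 (95% confidence interval -0.22 to 0.14, adjusted p = 0.967).

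Over the 8 genes other than *Rspo1*, 1 of 15 probe sets was called, that of *Rspo2*, where 0.302% of all probe sets were called at an adjusted p of 0.05 and 0.187% were called lower. The groups did not overlap in the same 1 of 15, where 2.08% of all probe sets did not overlap. An unadjusted p under 0.05 was found in 3 of the 15, those of *Rspo2*, *Rspo3* and *Rnf43*, and in 7.19% of all probe sets. Fold changes were below 0 for 12 of the 15 and above 0 for 3, with a median of -0.05, beside a median over all probe sets of -0.00021, and the split of 12 and 3 also held after quantile normalization and after centring on array medians. It moved to 11 and 4 in 6 of the 10 fits that left out 1 array (without *Crtc1*-/- mouse 1 or 4, or without WT mouse 1, 2, 4 or 5), and without the dimmest 25% of probe sets it was 10 and 3 of 13. The 3 above 0 belonged to *Lgr4*, *Lgr6* and *Rnf43*. Apart from *Rspo1*, which was chosen for its fall, 1455893_at for *Rspo2* and 1455607_at for *Rspo3* lay farthest below 0 among the members. The other probe sets of these ligands lay at -0.05 (1430104_at) and -0.14 (1443187_at), beside -0.18 for *Lgr5* 1450988_at. *Rspo4*, a ligand that is not a member, lay at 0.11. The fold changes of the ligands were not tested against those of the receptors and ligases.

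**Figure D2:**
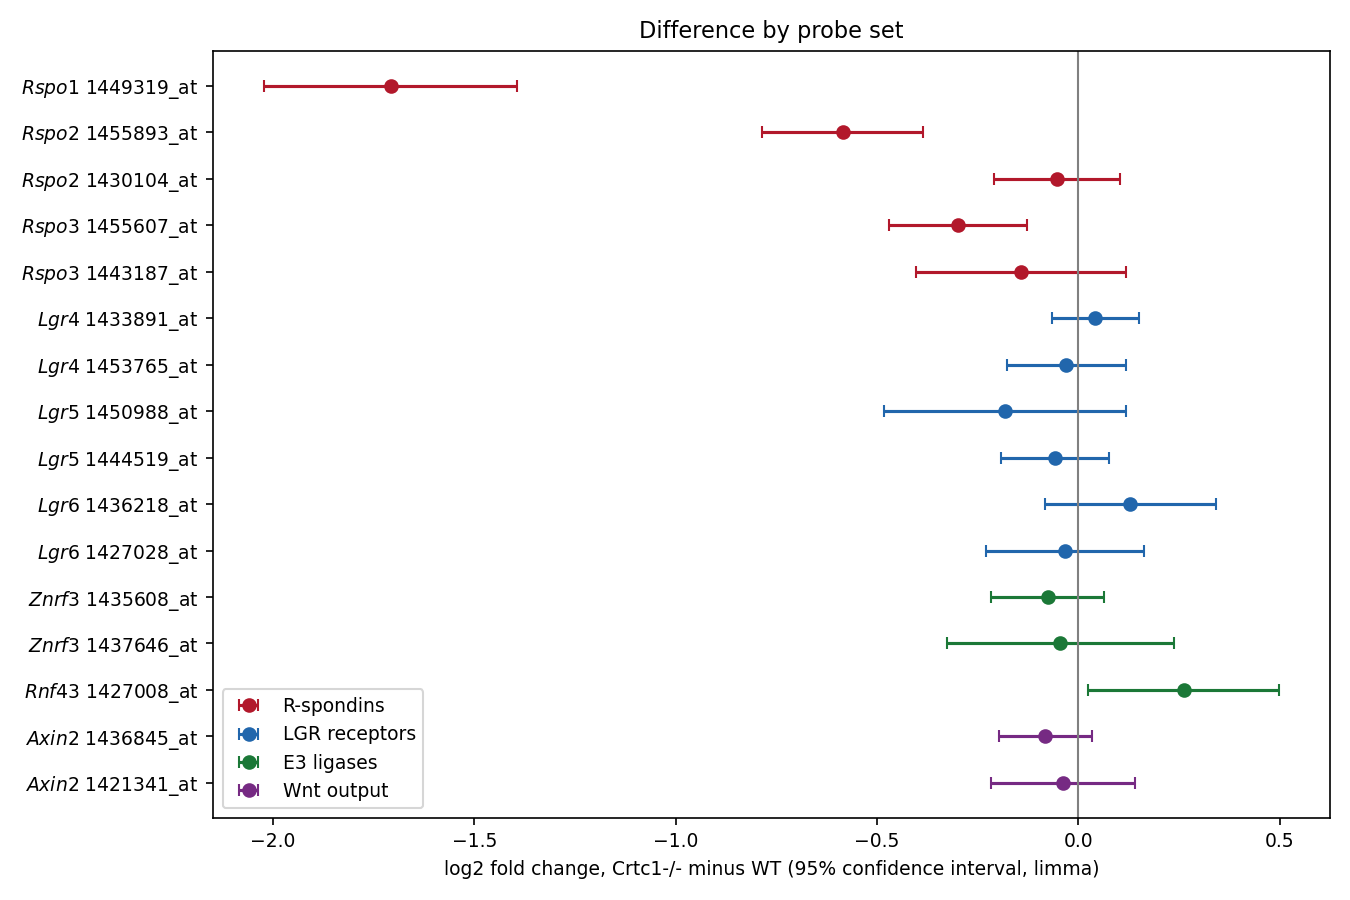
Log2 fold change (x axis, *Crtc1*-/- minus WT) of each of the 16 probe sets (y axis), grouped by role, with the 95% confidence interval from limma. *Rspo1* at -1.71 and *Rspo2* 1455893_at at -0.59 lie farthest below 0, and both *Axin2* intervals include 0. *Rspo1* was chosen for its fall in these arrays, so its interval is drawn as a description and not as a test.

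Of 108 further genes of the Wnt pathway in 8 lists, 105 were measured, *Kremen2*, *Tcf7* and *Lhcgr* being absent from the annotated probe sets, and 1 fell and 0 rose, where 0.517% of all genes were called, 0.313% lower and 0.203% higher. An unadjusted p under 0.05 was found in 13 of the 105, and in 8.83% of all genes. The median log2 fold change of the 105 genes was -0.0053, beside -0.0030 over all genes. Every *Crtc1*-/- mouse lay below every WT mouse in 5 of the 105 genes (4.76%) and above in 0. Of all genes, 3.14% had groups without overlap, and 2.04% had all *Crtc1*-/- mice below all WT mice. These 5 were *Wnt4*, *Wnt10a*, *Porcn*, *Apc2* and *Ccnd1*.

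Among 21 genes for Wnt ligands and their secretion, *Wnt4*, a ligand of kidney and ovary development, fell and the other 20 did not pass the test. An unadjusted p under 0.05 was found in 6 of the 21, the most of any of the 8 lists and in the longest of them, beside 8.83% of all genes. These 6 lay on both sides of 0. *Wnt4*, *Wnt10a* and *Porcn* were below. *Wnt1* (log2 fold change 0.20), *Wls* (0.17) and *Wnt5b* (0.14) were above, the last 2 named outside the rule to give both directions. *Wnt4* read 7.92, 8.08, 7.95, 8.01 and 7.83 in *Crtc1*-/- mice 1 to 5, against 8.49, 8.24, 8.43, 8.28 and 8.23 in WT mice 1 to 5. Every *Crtc1*-/- mouse lay below every WT mouse. The log2 fold change was -0.38 (standard error 0.07, adjusted p = 0.0440), and the call was lost in all 10 fits that left out 1 array (adjusted p = 0.0519 to 0.126).
*Wnt10a*, another ligand, averaged 7.51 ± 0.10 in *Crtc1*-/- mice, against 7.86 ± 0.14 in WT mice (SD, n = 5 each), a log2 fold change of -0.36 that did not pass the test (adjusted p = 0.104). For *Porcn*, the enzyme that adds the lipid Wnt proteins need for secretion, the difference was -0.09 (adjusted p = 0.669). Both are named because their groups did not overlap, a choice made after their values were seen.

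The receptors that Wnt proteins bind were 16 genes, of which 0 passed limma's test and 1 had an unadjusted p under 0.05 (8.83% of all genes, as for each list here). The smallest p belonged to *Fzd7* (log2 fold change 0.22, adjusted p = 0.669) and *Fzd1* (log2 fold change -0.19, adjusted p = 0.819). Of 16 measured secreted or surface inhibitors 0 passed (1 with an unadjusted p under 0.05), with *Sfrp2*, which binds Wnt proteins outside the cell, at -0.14 (adjusted p = 0.512), and *Kremen1*, a receptor for DKK proteins, at -0.17 (adjusted p = 0.696). Of 10 syndecans and glypicans, the surface proteoglycans that also hold R-spondins, 0 passed (0 with an unadjusted p under 0.05), and *Sdc2* had the smallest p (log2 fold change 0.17, adjusted p = 0.734). Inside the cell 0 of 17 cytoplasmic transducers passed (2 with an unadjusted p under 0.05), with *Apc2*, a relative of the scaffold *Apc*, at -0.16 (adjusted p = 0.517). Of 12 nuclear partners of beta-catenin 0 passed (1 with an unadjusted p under 0.05), with *Bcl9* at -0.16 (adjusted p = 0.510).

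Beyond *Axin2*, 13 of 14 listed Wnt target genes were measured, of which 0 passed limma's test and 2 had an unadjusted p under 0.05. Wnt regulation of many of these genes is known from other tissues than adult cortex. *Ccnd1*, which encodes cyclin D1, read 8.35 to 8.60 in *Crtc1*-/- mice and 8.64 to 9.16 in WT mice. Its groups did not overlap, and its log2 fold change of -0.45 (standard error 0.09) had an adjusted p of 0.100. *Nkd1*, a feedback inhibitor that Wnt signalling induces, read 6.75 to 7.15 in *Crtc1*-/- mice and 6.51 to 6.80 in WT mice. Its log2 fold change was 0.27 (adjusted p = 0.354), so *Ccnd1* and *Nkd1* lay on opposite sides of 0 without passing the test.

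**Figure D3:**
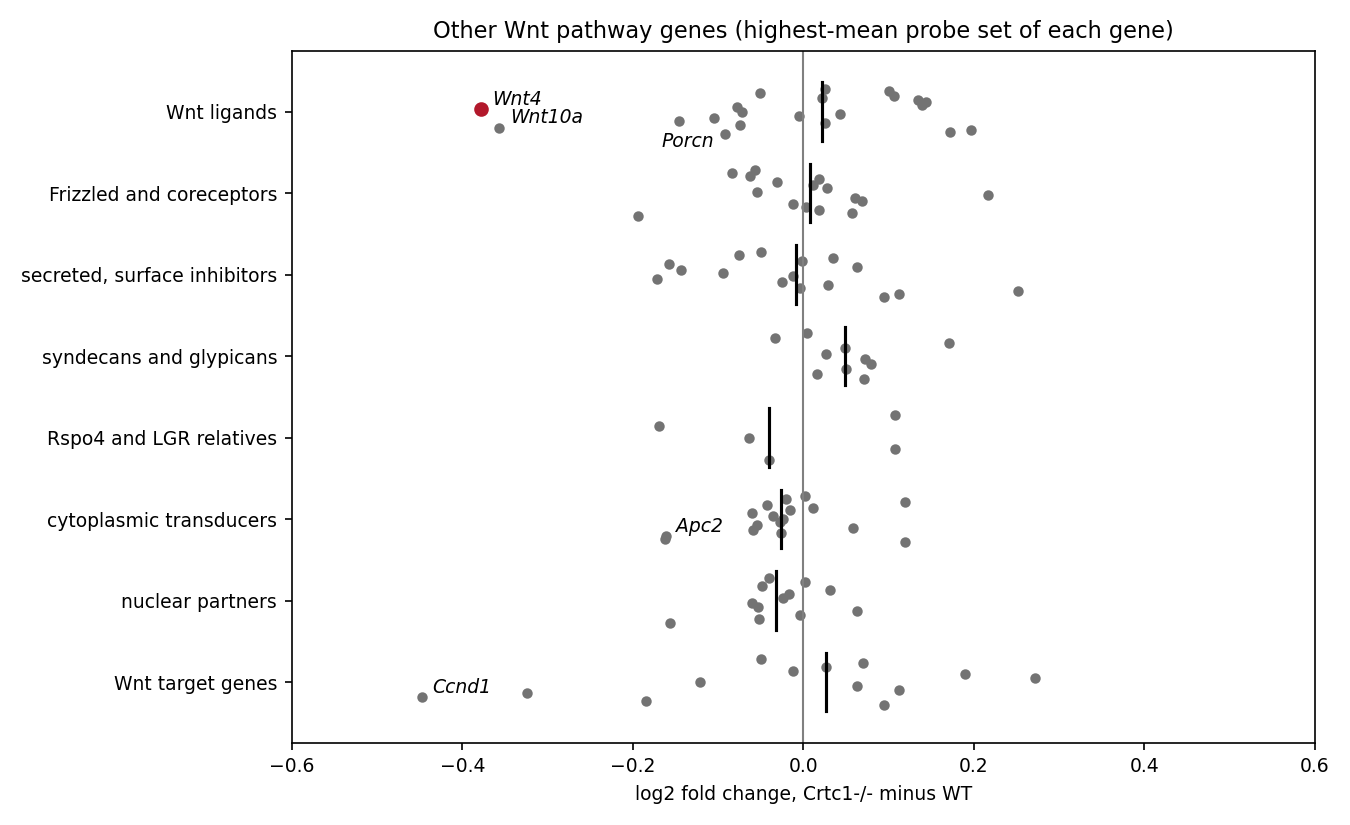
Log2 fold change (x axis, *Crtc1*-/- minus WT) of 105 Wnt pathway genes in 8 lists (y axis), each point a gene, black lines the list medians and red the gene that passed the test, *Wnt4* at -0.38. Named genes are those whose groups did not overlap, and genes in more than 1 list appear in each.

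The genes whose values followed *Rspo1* most closely over the 10 arrays were *Zdbf2* (Pearson r 0.980), *Sik3* (r 0.977), *Ccdc124* (r 0.975), *Ntrk2* (r 0.969) and *Usp29* (r 0.967). *Zdbf2* and *Usp29* are imprinted genes, *Ntrk2* encodes the BDNF receptor TrkB, *Sik3* encodes a salt-inducible kinase, a family known to phosphorylate CRTC proteins, and *Ccdc124* lies on chromosome 8, as does *Crtc1*. These r values are a description and were set mostly by the difference between genotypes, which all 5 genes share. Once each genotype's mean had been subtracted, r with *Rspo1* was 0.671 for *Zdbf2*, 0.748 for *Sik3*, 0.567 for *Ccdc124*, 0.504 for *Ntrk2* and 0.587 for *Usp29*. The 5 genes were picked by r over the same 10 arrays, which includes this part within genotypes. The choice itself therefore raises these remaining r values, and they were not tested. In all, 49 genes had an r over 0.9 with *Rspo1*.

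**Figure D4:**
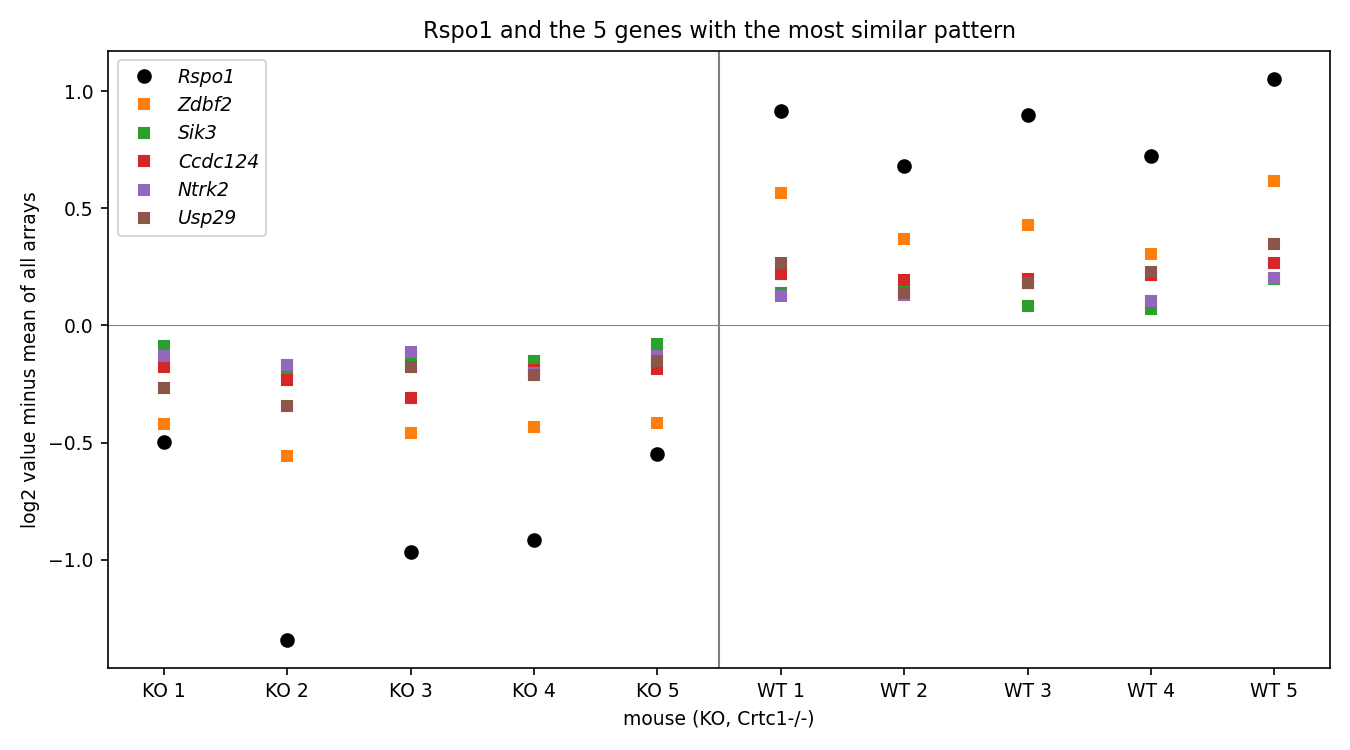
Log2 value minus the mean of all 10 arrays (y axis) in each mouse (x axis, *Crtc1*-/- left of the vertical line and WT right of it) for *Rspo1* and the 5 genes most like it. In all 6 genes every *Crtc1*-/- mouse lies below 0 and every WT mouse above 0, with *Rspo1* spread over the widest range. The 5 genes were chosen for following *Rspo1*, so this separation comes with the choice. Of all genes, 3.14% had groups without overlap.

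Markers of the cells that could carry these transcripts were set beside the ligands. Layer 4 markers (6 of 6 measured, 4 with a fold change above 0, 2 below and 0 called) averaged 7.85 to 8.06 on the log2 scale in *Crtc1*-/- mice and 7.77 to 7.91 in WT mice. Once each genotype's mean had been subtracted, the list means correlated with *Rspo1* at -0.48 (hippocampal markers) to 0.63 (layer 4 markers). These r values are a description and were not tested. The defining layer 4 gene *Rorb*, among the 4 above 0 and not called, averaged 9.58 in *Crtc1*-/- mice and 9.37 in WT mice. Layer 2/3 markers (5 of 5 measured, 4 with a fold change above 0 and 1 below) averaged 9.82 to 9.90 in *Crtc1*-/- mice and 9.64 to 9.80 in WT mice, and 2 of them rose, where 0.203% of all genes did, *Lamp5* (log2 fold change 0.25, adjusted p = 0.0406) and *Rasgrf2* (log2 fold change 0.26, adjusted p = 0.0442). Markers of cortical neurons (7 of 8 measured, 6 with a fold change below 0 and 0 called) averaged 11.36 to 11.45 in *Crtc1*-/- mice and 11.43 to 11.50 in WT mice. The 3 farthest below 0 were chosen after their values were seen, and none passed the test. They were the excitatory neuron markers *Neurod6* (log2 fold change -0.19, adjusted p = 0.489), *Tbr1* (log2 fold change -0.18, adjusted p = 0.468) and *Slc17a7* (log2 fold change -0.13, adjusted p = 0.548). The groups of *Neurod6* did not overlap, as in 3.14% of all genes.
Hippocampal markers (10 of 11 measured, 4 with a fold change above 0 and 6 below) averaged 4.73 to 4.90 in *Crtc1*-/- mice and 4.88 to 5.07 in WT mice, and 1 fell, where 0.313% of all genes did, *Fibcd1* (log2 fold change -0.41, adjusted p = 0.0225). Beside *Rspo3*, endothelial markers (9 of 9 measured, 0 called) averaged 7.40 ± 0.08 in *Crtc1*-/- mice and 7.34 ± 0.14 in WT mice, and markers of meningeal fibroblasts (10 of 10 measured, 0 called) averaged 7.56 to 8.00 in *Crtc1*-/- mice and 7.70 to 7.90 in WT mice. Oligodendrocyte markers (11 of 12 measured, 11 with a fold change above 0 and 0 called) averaged 10.23 to 10.55 in *Crtc1*-/- mice and 9.97 to 10.30 in WT mice. The part of these marker differences in the values of *Rspo1*, *Rspo2* and *Wnt4* was not tested, and amygdala markers were not among the lists.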

How the data were processed

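The authors labelled cortical RNA with the 3′ IVT Express kit, hybridized GeneChip Mouse Genome arrays (Affymetrix), and excluded arrays of poor quality with the RACE package. The deposited values are log2 expression values, 1 per probe set and array, which the authors had already normalized between arrays by a method not given in the sources used here. They were used as deposited, without detection calls, and 5 arrays per genotype limit the precision. Mice were grouped by the genotype in their labels.

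Of 45101 probe sets, 64 controls were left out. The platform annotation gave 1 gene for 34945 of the remaining 45037, several for 932 and none for 9160, and gene identifiers of 34741 were matched to current symbols of GRCm38.p6. Each probe set was fitted in R 4.3.3 with limma 3.58.1 (lmFit, then eBayes) as *Crtc1*-/- minus WT, two-sided, adjusted by Benjamini-Hochberg across the 45037 probe sets, with 0.05 as the threshold on the adjusted p. For Wnt genes and markers the gene was read at its probe set of highest mean, and a marker list's level is the mean over its genes. The fit was tested on simulated data first. Members and lists were chosen with earlier results of these data known. All members, *Crtc1*, called genes of the Wnt and marker lists, otherwise up to 3 genes of the smallest p per Wnt list, and the 5 genes with the highest r with *Rspo1* could be named, and names outside this rule are marked as such or are defining markers.

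The fit was repeated after quantile normalization or median centring, without the dimmest 25% of probe sets, without those that may cross-hybridize (_x_at and _s_at), with array weights, with a robust trended prior or unmoderated, with replicate number as a block, on gene means, with adjustment over genes, and without each array in turn. The study's quantitative PCR, protein and behavioural data were not used here.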

Additional observations from a re-analysis of the deposited data

How the results depend on the processing

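The log2 fold change of *Axin2*, read at 1436845_at or as the gene mean, kept its direction in all 19 alternatives, at -0.10 to -0.05. It never passed limma's test (adjusted p = 0.759 to 0.956). That of *Rspo1* ran from -1.80 to -1.59 over 19 alternatives, which is a description. *Rspo1* was chosen for its fall and its groups lay 1.18 apart, so leaving out 1 array could not turn its direction. With 1 array left out, 4 member probe sets that were not called turned above 0. These were *Axin2* 1421341_at without *Crtc1*-/- mouse 4 (0.021) and without WT mouse 2 (0.0095), *Lgr4* 1453765_at without *Crtc1*-/- mouse 1 (0.0025), *Lgr6* 1427028_at without WT mouse 1 (0.050), and *Znrf3* 1437646_at without WT mouse 4 (0.034) and without WT mouse 5 (0.022). Their log2 fold changes over these fits ran from -0.093 to 0.021 for *Axin2* 1421341_at (adjusted p = 0.915 to 0.992), -0.083 to 0.0025 for *Lgr4*, -0.081 to 0.050 for *Lgr6* and -0.18 to 0.034 for *Znrf3*. Of the 15 other member probe sets 1 was called as reported, and 0 were called without moderation. Of the 105 Wnt genes 1 was called as reported, 3 with the trended and robust prior (*Wnt4*, *Wnt10a* and *Ccnd1*), 2 with gene means (*Wnt4* and *Ccnd1*) and 0 without moderation. Over all probe sets 136 were called as reported, 239 with the trended and robust prior and 75 without moderation. With 1 array left out, 0 to 1 member probe sets, 0 to 1 Wnt genes and 70 to 105 of all probe sets were called, and *Ccnd1* was called without WT mouse 4 (adjusted p = 0.0298). The cause of these shifts was not tested, and leaving out 1 array changes the number of arrays and the set of mice together. With the replicate number as a block, 0 member probe sets, 0 Wnt genes and 40 of all probe sets were called, with adjusted p of 0.131 for *Rspo2* and 0.213 for *Wnt4*. Over all probe sets, deviations of same-numbered mice correlated at -0.33 to 0.09, and 1 of 5 WT arrays correlated best with its own number. With the block the standard error fell from 0.144 to 0.090 for *Rspo1* and rose from 0.053 to 0.058 for *Axin2* 1436845_at. It fell at more of the member probe sets than it rose. At *Axin2* 1421341_at it fell from 0.082 to 0.061, and at *Lgr6* 1427028_at it rose from 0.090 to 0.102. Whether same-numbered mice shared a litter or batch was not tested. Array number limits small changes, and member probe sets with values near the low end of the scale, such as *Lgr4* 1453765_at and *Lgr5* 1444519_at, which fell in the dimmest 25%, give little information on a change.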
